A study of Canis rufus and Canis latrans with 56 samples.

Results

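The translation initiation and elongation factors are the proteins that start and extend polypeptide synthesis on the ribosome. Their genes were taken as every symbol in the probe annotation that begins with EIF1 to EIF6 or EEF, without the EIF2AK kinases and EEF2K, and each gene was represented by the probe with the highest mean level over the animals. This gave 55 genes on 64 probes, of 16121 named genes on 24354 probes in all. The samples were whole blood from 1 coyote (Canis latrans, a free-ranging female by the design text, labelled 20288) and 13 red wolves (Canis rufus), of which 6 were captive and 7 free-ranging. Status and sex are not given wolf by wolf in the labels used here, so captive and free-ranging wolves were not compared; a note of collection in the wild stands with wolves 11136, 111080 and 11310 and with the coyote.

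Blood was kept in RNAlater, and the total RNA was amplified, labelled with biotin and hybridised to Illumina bead arrays made for human transcripts. Each animal's labelled RNA was run on 4 arrays, giving 56 arrays on 7 slides. These arrays are technical repeats, so an animal counts once. A value below is a log2 intensity relative to the mean of its array, averaged over an animal's arrays with the slide effect removed, so that 1 unit means that intensity doubles. The gene names are those of the human probes, and which canid transcript bound to each was not measured here. Probes differ in binding strength, so no gene's level was set against another gene's.

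In initiation, eIF2 carries the initiator tRNA to the small ribosomal subunit, eIF3 forms a scaffold there, and the eIF4 factors bring in the capped messenger RNA and unwind it, while eIF1, eIF1A and eIF5 help to select the start codon. In elongation, eEF1A delivers each aminoacyl-tRNA, the eEF1B complex of EEF1B2, EEF1D and EEF1G recharges eEF1A with GTP, and eEF2 moves the ribosome along. Blood is an unusual tissue for this machinery, because reticulocytes, the last nucleus-free stage before mature red cells, still translate a store of long-lived messenger RNA that is mostly globin, whereas white cells make new RNA.

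Averaged over the 14 animals, 16 of the 55 genes exceeded a background bound of 0.396. The bound is the mean of HPX, which was the brightest of 39 measured genes that mark liver or skeletal muscle. The 16 genes above it were EEF1A1, EEF1G, EEF1AKMT1, EEF1AKMT3, EIF2A, EIF2B1, EIF2S3, EIF3D, EIF3F, EIF3L, EIF3M, EIF4A2, EIF4E2, EIF4EBP3, EIF4G2 and EIF5. The other 39 ranged from -0.46 to 0.31 in mean level. Whether the canid transcript was absent or the human probe failed to bind it cannot be told apart for these. Red cell genes were plainly seen, with 7 of 13 measured markers above the bound, among them the globin probe HBD at 6.15 and the mitophagy receptor BNIP3L at 3.16. White cell markers were near background, with 1 of 14 neutrophil, 1 of 12 T cell, 0 of 9 B and plasma cell and 2 of 9 monocyte genes above it, and 1 of 8 platelet genes.

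A minority of the translation factors differed among the red wolves, most of them genes above the bound. EEF1A1, EIF4A2 and EIF4G2 had the largest SDs over the 13 wolves, 0.88, 0.76 and 0.72. In limma's moderated F test of the animals, with slide in the model and Benjamini-Hochberg adjustment over all probes, 18 of the 55 genes (32.7%) passed at an adjusted p under 0.05, against 12.8% of all named genes. The test asks whether wolves differ by more than repeated arrays of the same RNA do. Among the 16 genes above the bound 14 passed (87.5%), where 79.1% of the 1597 named genes above the bound did, so that the share was near that of all genes above it. Those genes were not matched to the 16 for brightness. Of the 39 genes at or under the bound 4 passed (10.3%), against 5.52% of all such genes. The median share of variance that lay between wolves was 0.760 for the 16 genes and 0.539 for all genes above the bound, and the median SD over wolves was 0.40 and 0.25. The share was 0.759 for the 18 genes above the bound in the other translation lists given below. For ribosomal protein genes above the bound it was 0.728 in the large subunit and 0.585 in the small one.

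**Figure D1:**
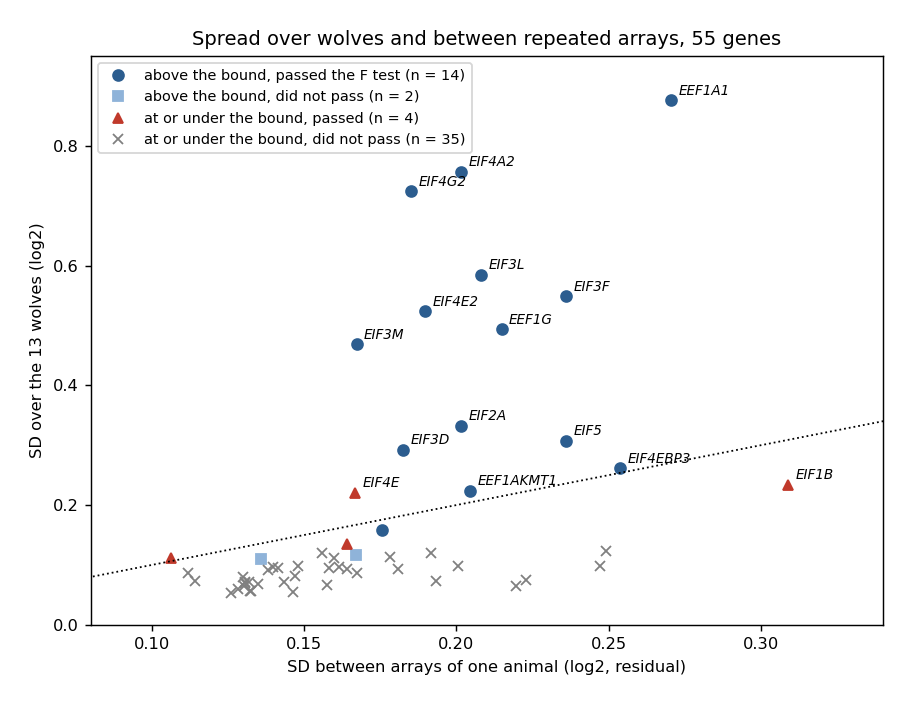
Each point is 1 of the 55 genes, with the residual SD between arrays of an animal on the horizontal axis and the SD over the 13 wolves on the vertical axis, both in log2 units; the dotted line marks equal SDs. EEF1A1, EIF4A2 and EIF4G2 lie highest, at 0.88, 0.76 and 0.72 over wolves, while the 35 genes at or under the bound that did not pass stay at or below 0.12.

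Among the factors of start codon selection, EIF5, the protein that triggers GTP hydrolysis on eIF2, stood at -0.18 in its lowest wolf, 0.42 in the median wolf and 0.89 in its highest (adjusted p = 7.06e-08). Wolves 11206 and 11270 were highest, at 0.89 and 0.88, and wolves 11136 and 10632 lowest. EIF5 has 3 probes, and the other 2, which are annotated to another transcript record, lay under the bound at -0.04 and -0.15 and did not pass (adjusted p = 0.821 and 0.635). EIF1B, a close relative of the start codon guardian EIF1, and EIF5B, the GTPase that joins the ribosomal subunits, passed at mean levels under the bound (adjusted p = 0.0127 and 0.0411). Both were highest in wolf 11206, at 0.82 and 0.49. For EIF1B that level rests on 1 array, since the deposited values of wolf 11206 were 0.16, 2.00, 0.11 and 0.46. The EIF1B call was lost without that wolf (adjusted p = 0.0555), without wolf 11310 (0.0940), without the second array of each animal (0.137) and under 3 further settings. The EIF5B call was lost under 20 of 33 other settings. EIF1 itself had a mean of -0.04 and an adjusted p of 0.236.

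Initiator tRNA is brought by eIF2, whose gamma subunit gene EIF2S3 was the only subunit above the bound. EIF2S3 ranged from 0.26 to 0.62 over the wolves, and its SD of 0.12 was below the 0.17 between arrays (adjusted p = 0.282). EIF2A, a separate protein that can deliver initiator tRNA in alternative modes of initiation and is not the alpha subunit of eIF2, did differ. It stood at 0.40 in its lowest wolf, 0.74 in the median wolf and 1.30 in its highest (adjusted p = 5.05e-10). The 4 highest wolves, 11310, 11270, 11206 and 111080, lay between 1.20 and 1.30 and the next at 0.85. Of the 5 genes of eIF2B, the factor that reloads eIF2 with GTP, none passed (0 of 5). EIF2B1 was the only one above the bound, ranging from 0.23 to 0.57 (adjusted p = 0.216).

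The eIF3 complex has 13 subunit genes here, and 4 of them, EIF3F, EIF3L, EIF3M and EIF3D, lay above the bound and passed. EIF3F stood at 1.78 in wolf 11273, 2.38 in the median wolf and 3.37 in wolf 111080, a 3.02-fold span (adjusted p = 1.66e-15). EIF3L stood at 1.55 in wolf 11273, 2.27 in the median wolf and 3.26 in wolf 111080, a 3.26-fold span (adjusted p = 2.02e-18). The same 6 wolves, 10537, 11105, 111080, 11206, 11270 and 11310, were at 2.91 or above for EIF3F and at 2.80 or above for EIF3L, while the other 7 were at most 2.38 and 2.27. EIF3M stood at 1.03 in its lowest wolf, again 11273, at 1.41 in the median wolf and at 2.39 in wolf 11206 (adjusted p = 4.74e-17). EIF3D, the subunit that can itself bind the cap of some messenger RNAs, varied less, from 1.59 in wolf 10632 to 2.56 in wolf 11105, with a median of 2.00 (adjusted p = 1.14e-07). The 9 remaining subunits, EIF3A, EIF3B, EIF3C, EIF3E, EIF3G, EIF3H, EIF3I, EIF3J and EIF3K, lay under the bound and did not pass.

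The eIF4 group held the factors with the largest shares of variance between wolves. EIF4G2, a scaffold that lacks the cap-binding arm of its relative EIF4G1 and serves alternative initiation, stood at 2.45 in wolf 11273, 3.36 in the median wolf and 4.42 in wolf 11206, a 3.91-fold span, and 0.935 of its variance lay between wolves (adjusted p = 2.96e-23). EIF4A2, a helicase of the cap-binding complex, stood at 2.36 in wolf 11273, 3.32 in the median wolf and 4.23 in wolf 11206, a 3.65-fold span, and 0.930 of its variance lay between wolves (adjusted p = 1.70e-23). For EIF4A2 the 5 lowest wolves, 11273, 10632, 10406, 11148 and 11274, lay between 2.36 and 2.63 and the other 8 between 3.27 and 4.23. EIF4G2 had no gap of that size, its largest being 0.33 between 3.58 and 3.91. EIF4E2, a cap-binding protein that represses translation, ranged from 1.03 in wolf 11148 to 2.55 in wolf 11206 with a median of 1.58 (adjusted p = 4.15e-18).

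The cap-binding protein gene EIF4E passed at a mean level under the bound, with 0.04 in wolf 11273, 0.22 in the median wolf and 0.79 in wolf 11310 (adjusted p = 1.22e-06). EIF4A1, EIF4B, EIF4G1 and EIF4H were under the bound and did not pass, with adjusted p values of 0.234, 0.629, 0.914 and 0.490. EIF4EBP3, which belongs to the small proteins that sequester eIF4E, ranged from 0.32 in wolf 11136 to 1.22 in wolf 11273 with a median of 0.91 (adjusted p = 0.000294). In human the last exons of EIF4EBP3 are shared with read-through transcripts of its neighbour ANKHD1, and the probe cannot tell these apart if the canid locus is built alike. EIF4EBP1, EIF4EBP2 and EIF4ENIF1 lay under the bound and did not pass. Neither EIF5A, which helps ribosomes past difficult stretches, nor EIF5A2 or EIF6 lay above the bound (0 of 3 passed).

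Of the 7 elongation factor genes, EEF1A1 and EEF1G lay above the bound and passed. EEF1G, the structural subunit of the eEF1B complex, stood at 2.48 in wolf 11148, 3.65 in the median wolf and 4.20 in wolf 11310 (adjusted p = 1.09e-13), and wolf 11136 was next lowest at 2.99. EEF1B2, the exchange subunit, passed at a mean of 0.03 (adjusted p = 0.0404), a call lost under 23 of 33 other settings; its other 2 probes did not pass (adjusted p = 0.686 and 0.909). EEF1D, EEF2, EEF1A2 and the selenocysteine factor EEFSEC were under the bound and did not pass. EEF1AKMT1 and EEF1AKMT3 encode methyltransferases that act on lysines of eEF1A. EEF1AKMT1 ranged from 0.78 in wolf 11310 to 1.52 in wolf 11148 with a median of 1.17 (adjusted p = 0.000577), and EEF1AKMT3 from 0.17 to 0.69 (adjusted p = 0.0440, lost under 16 of 34 other settings). EEF2KMT, the methyltransferase of eEF2, lay under the bound.

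EEF1A1 stood apart in a single wolf. Wolf 11136 had a level of 0.34, while the other 12 wolves lay between 2.61 and 3.79 with a mean of 3.19 ± 0.39 (SD, n = 12). On its 4 arrays the deposited EEF1A1 values ran from 0.12 to 0.55, and the lowest array of any other wolf stood at 2.00. Measured from the background bound, which lies above its level, EEF1A1 in wolf 11136 was at least 6.95-fold lower than the mean of the other wolves. Without this wolf the SD of EEF1A1 over wolves was 0.39 in place of 0.88 and the span 2.26-fold in place of at least 10.5-fold, and it still passed the F test in each of the 34 other settings tried, this one included.

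The arrays of wolf 11136 also had the narrowest signal range, with a mean 95th percentile of 0.381 against 0.568 to 0.866 for the other wolves, and this wolf was lowest for 38.9% of the 1597 genes above the bound. Among the 16 translation factors it was lowest for 4 (25.0%), EEF1A1, EIF4EBP3, EIF5 and EIF2B1. The low EEF1A1 level was as large with the ranges made alike: it stood at 0.41 in wolf 11136 against 3.13 ± 0.23 in the others after quantile normalization, and at 0.22 against 3.23 ± 0.35 after scaling each array to 1 median absolute deviation. EIF4A2, in contrast, stood in wolf 11136 at 3.55 against 3.32 ± 0.79 in the others, and EIF4G2 at 3.36 against 3.40 ± 0.76. After quantile normalization EIF4A2 was higher in wolf 11136 than in all other 12 wolves, at 4.11 against a highest value of 3.94. The array holds 1 probe of EEF1A1, and a change in the sequence under it cannot be told apart here from a lower transcript level.

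**Figure D2:**
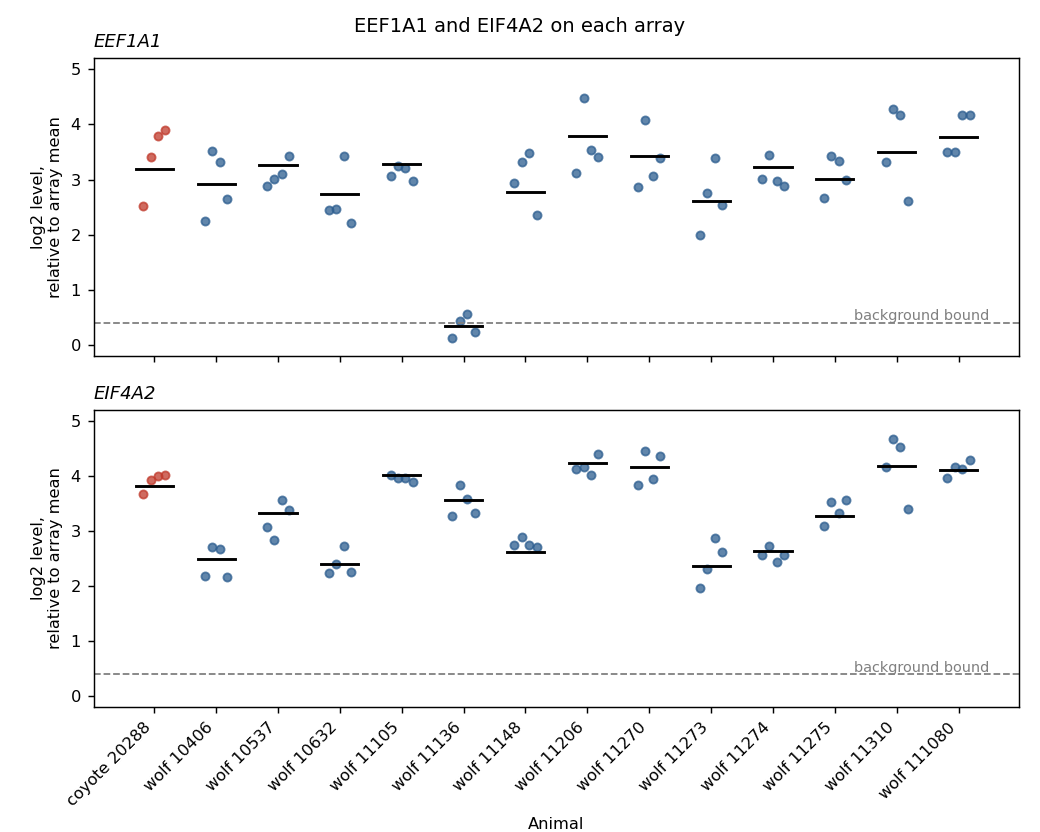
Points are the deposited log2 levels of the 4 arrays of each animal, coyote in red and wolves in blue, for EEF1A1 (upper panel) and EIF4A2 (lower panel); black bars are the animal's level with the slide effect removed and the dashed line is the background bound of 0.396. All 4 EEF1A1 arrays of wolf 11136 lie between 0.12 and 0.55, while its EIF4A2 level of 3.55 lies within the range of the other wolves.

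The genes most like EEF1A1 over the 13 wolves, among 1596 other genes above the bound, were RPL18 of the large ribosomal subunit (r = 0.951), the transcriptional corepressor IRF2BP2 (0.901), the actin-severing cofilin CFL1 (0.899), the membrane glycoprotein EMP3 (0.890) and TMEM160 (0.884). They were picked for their likeness, so these values are a description. All 5 were lowest in wolf 11136, and without it r was 0.721, 0.838, 0.767, 0.819 and 0.856. In that wolf they stood at 2.03, 0.36, 0.64, 0.43 and 0.29. Their means over the 14 animals were 4.84, 1.12, 3.69, 2.65 and 1.15, so a deep drop in this wolf was not peculiar to EEF1A1. The median r of all 1596 genes with EEF1A1 was 0.435.

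Many of the other bright translation factors went up and down together from wolf to wolf. The median r over pairs was not far above that of all genes above the bound, as given below. EIF4A2 and EIF4G2 had a Pearson r of 0.972 in a two-sided permutation test (p = 1e-05, the smallest that 100000 permutations can give, or 0.00012 after adjustment over the 12 chosen pairs). Spearman's rho was 0.956 (permutation p = 1e-05, adjusted 0.00012). Leaving out wolves 10632 and 11273, which lay farthest from the median of EIF4A2, gave r = 0.958. Within the 7 slides it ran from 0.935 to 0.991, and after quantile normalization it was 0.949. EEF1A1 and EEF1G, partners in elongation, had r = 0.627 (permutation p = 0.0257, adjusted 0.154). Their rho was 0.896 (permutation p = 6.00e-05, adjusted 0.00036). Leaving out wolves 11136 and 11273, which lay farthest from the median of EEF1A1, gave r = 0.797, and r within slides ran from 0.473 to 0.874. After quantile normalization r was 0.0433. The 10 other pairs chosen had at least 1 gene under the bound, and their adjusted p values lay between 0.849 and 0.981 for r.

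Over all 120 pairs of the 16 genes above the bound, 48 were positively and 1 negatively correlated at an adjusted p under 0.05 by r, and 51 and 2 by rho (permutation tests, two-sided, adjusted over the 120 pairs). The median r was 0.40, against 0.33 over the 1274406 pairs of all genes above the bound, and 21.7% of the pairs had r of at least 0.8, against 12.4%. After quantile normalization the medians were 0.05 and 0.04, and 23 pairs were positively and 13 negatively correlated. There 13.3% of the pairs had r of at least 0.8, against 6.24% of the pairs of all genes. Negative r past the cut-off given below was not more common in these pairs, at 20% against 23.2%. The share of all gene pairs that would pass the permutation test was not computed, with or without this normalization. The largest set in which every pair reached 0.8 held 7 genes, EIF4G2, EIF4A2, EIF3F, EIF3L, EIF4E2, EIF3M and EIF2A, with r between 0.801 and 0.973. The set was chosen for these values and has no test. After quantile normalization its r values lay between 0.697 and 0.949, and without wolf 11136 between 0.825 and 0.977. Within single slides the lowest r of a pair was between 0.334 and 0.935.

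Wolves 11206, 111080, 11270 and 11310 were above the wolves' mean for 7 of these 7 genes. Their median deviations were 0.79, 0.72, 0.49 and 0.63. Wolves 11273, 11148, 10406, 11274, 10632 and 11275 were above it for 0 of 7, with median deviations of -0.87, -0.66, -0.37, -0.36, -0.31 and -0.26. Wolf 11105 was above it for 6 genes and wolf 10537 for 5. Wolf 11136 was above it for 2, EIF4A2 and EIF2A. After quantile normalization this wolf also lay above the mean of the other wolves for EIF4G2 (3.93 against 3.32) and EIF3F (2.83 against 2.64). The counts given here are of the values before that normalization.

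**Figure D3:**
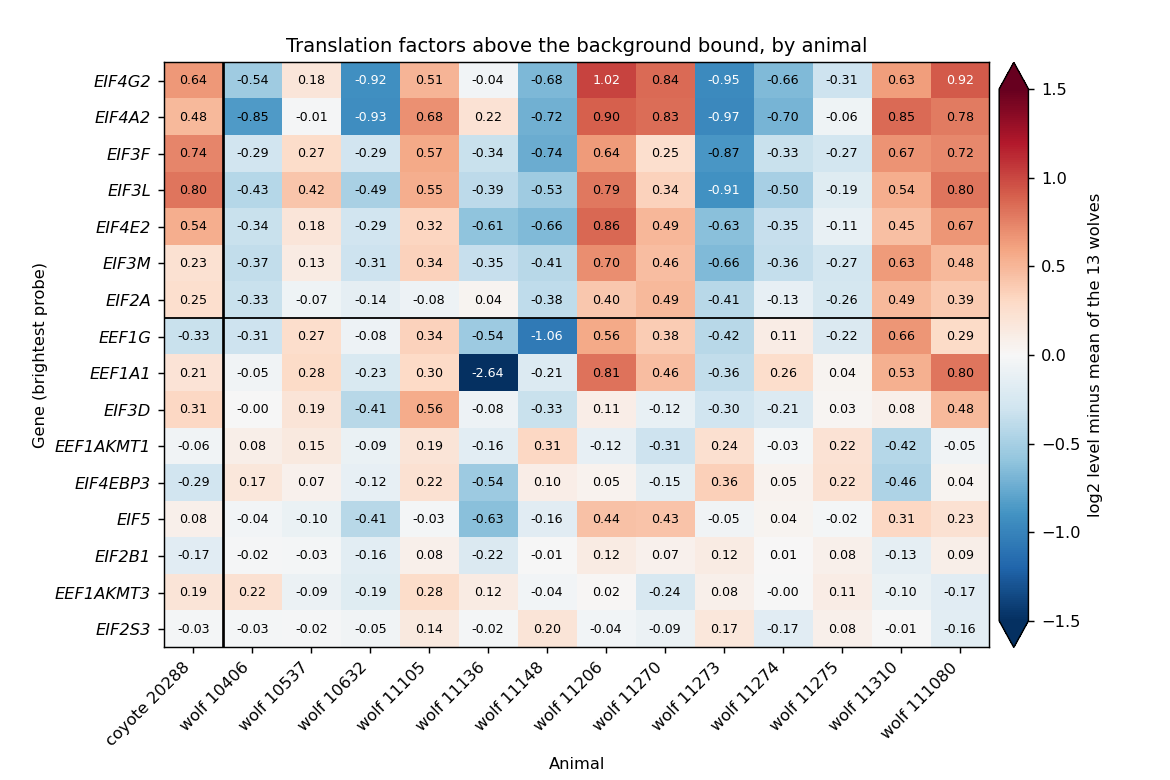
Each cell gives the log2 level of a gene in an animal minus the mean of the 13 wolves, for the 16 genes above the background bound (rows) in the coyote and in each wolf (columns); red is higher and blue lower, and colours end at 1.5 in either direction. The 7 genes above the horizontal line go together, high in wolves 11206, 111080, 11270 and 11310 and low in wolf 11273, and EEF1A1 in wolf 11136 runs past the end of the colour scale, with a difference of -2.80 from the other wolves' mean even when measured from the bound.

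By Pearson r, whether EEF1A1 passed with the genes of this set over 13 wolves depended on the gene, and r depended on wolf 11136 and on the normalization. Over 13 wolves it passed by r with EIF4E2 (0.690, adjusted permutation p = 0.00433), EIF3M (0.581, 0.0329) and EIF3L (0.564, 0.0460). With the other genes of the set it did not pass by r. By rho it passed with all 7, from 0.720 with EIF2A to 0.907 with EIF4E2 (adjusted permutation p = 0.0206 and 0.00086). Without wolf 11136 r ran from 0.881 with EIF2A to 0.936 with EIF4E2. After quantile normalization, with all 13 wolves, r with EIF4E2, EIF3M and EIF3L was 0.291, 0.0694 and 0.0971 (adjusted permutation p = 0.546, 0.879 and 0.869). The r of EEF1A1 with EIF4G2 was 0.413 over 13 wolves (permutation p adjusted over the 120 pairs 0.257), with a rho of 0.863 (adjusted p = 0.00200), and r was 0.926 without wolf 11136. With EIF4A2 the values were r = 0.30 (adjusted permutation p = 0.483) and rho = 0.819 (adjusted p = 0.00386), with r = 0.886 without the wolf. After quantile normalization, with all 13 wolves, r was -0.142 with EIF4G2 and -0.271 with EIF4A2 (adjusted permutation p = 0.847 and 0.613), and after scaling of the arrays 0.124 and 0.0257. Within slides the r of EEF1A1 with EIF4G2 ran from 0.267 to 0.965 and that with EIF4A2 from -0.0402 to 0.937.

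EEF1AKMT1 and EIF4EBP3 were both high in wolf 11273 and low in wolf 11310. Of the 14 pairs that they form with the 7 genes above, only EEF1AKMT1 with EIF2A passed by r before quantile normalization. By rho EIF4EBP3 with EIF2A passed too (rho = -0.714, adjusted permutation p = 0.0207). EEF1AKMT1 had r = -0.834 with EIF2A (permutation p adjusted over the 120 pairs 0.00269; rho = -0.846, adjusted p = 0.00236) and r = 0.805 with EIF4EBP3 (adjusted p = 0.00391; rho = 0.879, adjusted p = 0.00102). After quantile normalization these were -0.651 (adjusted p = 0.0516) and 0.429 (adjusted p = 0.285), so both calls were lost there. Within slides the first ran from -0.832 to 0.0681 and the second from 0.332 to 0.918. Most of the 14 pairs did pass after quantile normalization, with negative r. EIF4EBP3 had r = -0.933 with EIF2A there (adjusted permutation p = 0.00060), and EEF1AKMT1 r = -0.901 with EIF4E2 (0.00084). Besides EEF1AKMT1 with EIF2A, those that did not pass were EEF1AKMT1 with EIF4A2 (-0.599, 0.0869) and EIF4EBP3 with EIF4E2 (-0.549, 0.127). Of all pairs of genes above the bound, 23.2% had r of -0.5 or below there, against 20% of the 120 pairs.

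The mean of the red cell markers moved with EEF1AKMT1 and EIF4EBP3. This mean level of the 13 measured red cell markers, 7 of them above the bound, ran from 0.68 in wolf 11310 to 1.22 in wolf 11105. BNIP3L (SD 0.81) and HBD (SD 0.51) varied most among the markers and so weigh most in its spread. HBA1 and AHSP did not pass the F test among wolves (adjusted p = 0.0557 and 0.200). Single markers were not set against the translation factors. The markers ALAS2, SLC4A1, EPB42, KLF1, CA1 and CA2 lay under the bound. Over the 13 wolves this mean had r = 0.854 with EIF4EBP3 (permutation p = 5.00e-05, adjusted over 16 genes 0.00080; rho = 0.885, permutation p = 0.00013, adjusted p = 0.00208), and r = 0.778 with EEF1AKMT1 (permutation p = 0.00227, adjusted p = 0.0182; rho = 0.808, permutation p = 0.00148, adjusted p = 0.0118). With EIF2A it had r = -0.721 (permutation p = 0.00656, adjusted p = 0.0350; rho = -0.736, permutation p = 0.00556, adjusted p = 0.0297). Leaving out wolves 11105 and 11310, which had the most extreme red cell means, gave r = 0.799 for EIF4EBP3, 0.666 for EEF1AKMT1 and -0.711 for EIF2A. Within slides r ran from 0.420 to 0.921 for EIF4EBP3, from 0.0618 to 0.894 for EEF1AKMT1 and from -0.909 to -0.182 for EIF2A, with the same sign in 7 of 7 slides for each.

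The other 13 genes did not pass this comparison (adjusted p between 0.105 and 0.767 for r), EIF4A2 having r = -0.473 and EIF4G2 r = -0.451. The red cell comparison was not repeated after quantile normalization or scaling of the arrays. The share of all genes above the bound that would pass it was not computed. Whether the passing genes stand out from other genes in blood is therefore not known. What part the red cell share of the RNA had in the levels of the translation factors was not tested. In whole blood a smaller number of cells of a type and less RNA per cell cannot be told apart. The 95th percentile of a wolf's arrays was set beside the 16 genes in the same way, again without the share over all genes. It had r = 0.863 with EIF2B1 (permutation p = 0.00030, adjusted p = 0.0048; rho = 0.846, permutation p = 0.00049, adjusted p = 0.00784), 0.875 without wolves 10406 and 11136 and between 0.279 and 0.925 within slides. For EEF1A1 r was 0.739 (permutation p = 0.0151, adjusted p = 0.0804; rho = 0.505, permutation p = 0.0825, adjusted p = 0.311), and 0.186 without wolves 10406 and 11136. For EIF4EBP3 r was 0.702 (permutation p = 0.00961, adjusted p = 0.0769; rho = 0.418, permutation p = 0.160, adjusted p = 0.311), 0.706 without the same pair of wolves and between 0.154 and 0.820 within slides. For EIF4A2 and EIF4G2 it was 0.205 and 0.261 (adjusted permutation p = 0.634 and 0.534). EIF2B1 itself did not pass the F test among wolves (adjusted p = 0.216), and its SD of 0.11 over wolves was below the 0.14 between arrays.

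**Figure D4:**
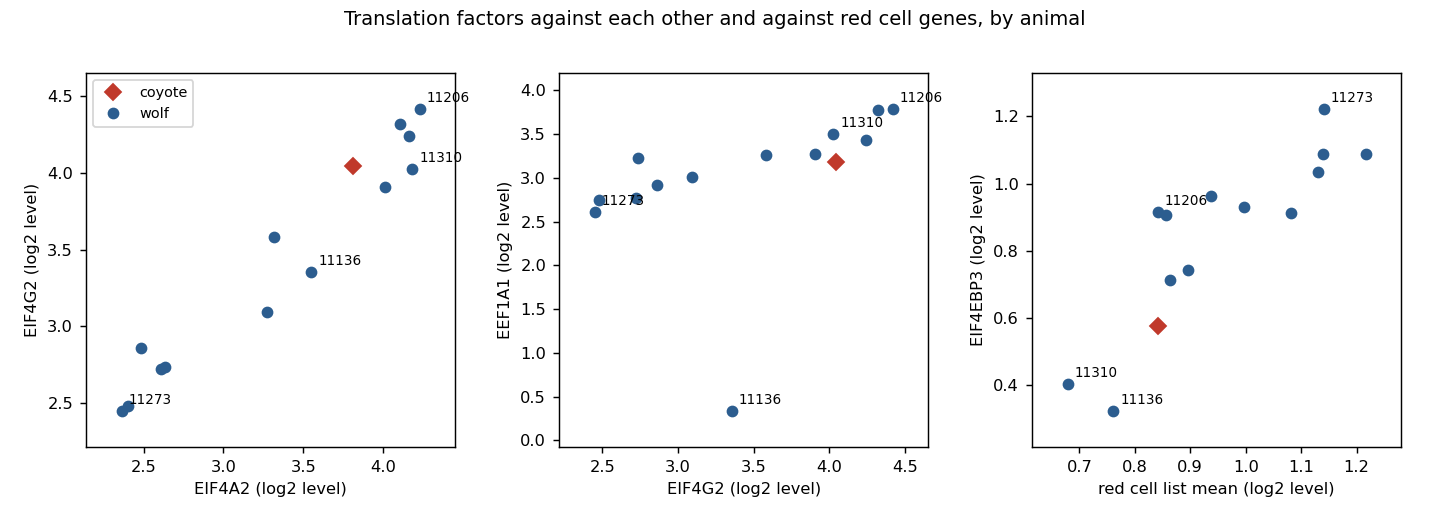
Each point is an animal, the coyote as a red diamond and the wolves as blue circles, with log2 levels on all axes: EIF4G2 against EIF4A2 (left), EEF1A1 against EIF4G2 (middle) and EIF4EBP3 against the mean of 13 red cell markers (right). The left panel follows a line (r = 0.972 over 13 wolves), and wolf 11136 falls far below the rest in the middle panel. EIF4EBP3 is higher where the mean of the red cell markers is higher (r = 0.854).

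Beyond the factors themselves, 17 of 83 measured genes that regulate, modify or complete translation differed among the wolves in the same F test, where 12.8% of all named genes did, and 15 of the 17 lay above the bound. Of these genes 18 lay above the bound in all, so 15 of 18 passed there, near the 79.1% of all named genes above it. The poly(A)-binding group, which ties the tail of a messenger RNA to the eIF4 factors, gave 4 of 8. PABPC1, the main cytoplasmic poly(A)-binding protein, ranged from 3.20 in wolf 11136 to 5.67 in wolf 10537 (SD 0.72, adjusted p = 4.11e-20), and PAIP1, which links it to eIF4A, from 0.35 in wolf 11273 to 1.68 in wolf 11206 (SD 0.46, adjusted p = 6.30e-18). PABPN1 (SD 0.33) and PABPC3, which lay under the bound (SD 0.20), also passed.

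Of 12 genes of the stress arm, which shuts down eIF2 by phosphorylation and restores it, 4 passed. These were the phosphatase catalytic subunits PPP1CC (SD 0.72, adjusted p = 3.15e-23) and PPP1CA (SD 0.69, adjusted p = 9.06e-24), both lowest in wolf 11273 and highest in wolf 111080, their stress-induced partner PPP1R15A, which stood at 1.22 in wolf 11310 and had a median of 0.25, and the transcription factor ATF4 (SD 0.29). These catalytic subunits also serve many other partners. The 4 were also the only genes of this list above the bound. The kinases of eIF2 measured here, EIF2AK1, EIF2AK2 and EIF2AK3, did not pass (adjusted p = 0.515, 0.629 and 0.417). Their means of -0.22, -0.13 and -0.07 lay under the bound, so whether the kinases differ among wolves cannot be told.

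In mTOR and S6 kinase control 1 of 19 passed, TPT1, a growth-related protein whose messenger RNA is itself under translational control (SD 0.39, adjusted p = 2.76e-10). Termination and recycling gave 2 of 8, MCTS1 (SD 0.33) and the release factor GSPT1 (SD 0.19). Mitochondrial translation gave 3 of 8, the elongation factors TSFM (SD 0.30) and TUFM (SD 0.16) and the release factor MTRF1 (SD 0.15). Aminoacyl-tRNA synthetases and their scaffold gave 3 of 20, QARS1 (SD 0.43), KARS1 (SD 0.24) and AIMP1 (SD 0.16, under the bound). The hypusine and diphthamide enzymes, which modify eIF5A and eEF2, gave 0 of 8. Ribosomal protein genes, given for scale, passed in 15 of 41 for the large subunit and 5 of 24 for the small one. Most genes of each of these lists lay under the bound. Above it, mTOR and S6 kinase control gave 1 of 1, termination and recycling 2 of 2 and mitochondrial translation 3 of 3. The synthetases gave 2 of 3 there and the hypusine and diphthamide enzymes 0 of 2. The large and small ribosomal subunits gave 12 of 12 and 4 of 4, where 79.1% of all named genes above the bound passed.

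The coyote was set against the 13 wolves with 1 value per animal. The fit takes the spread of coyotes to be that of the wolves, since a single coyote was measured. None of the 55 translation factors differed at an adjusted p under 0.05 in limma (0 of 55; adjusted p between 0.998 and 0.999), where 0.00411% of all probes did. At an unadjusted p under 0.05, 2 of 55 passed (3.64%), against 3.83% of all named genes (1.91% higher and 1.92% lower in the coyote). These were EIF3B (-0.34 in the coyote against -0.09 in the wolves) and EEF1B2 (-0.19 against 0.05), both lower in the coyote and both at levels under the background bound in coyote and wolves alike.

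The largest differences among the 18 genes that lay above the bound in the coyote, in the wolves' mean or over all animals were of genes of the common pattern. In the coyote EIF3L stood at 3.26, against 2.46 ± 0.59 in the wolves (SD, n = 13), a difference of 0.80 with a 95% interval of -0.43 to 2.04. EIF3F stood at 3.39 against 2.65 ± 0.55 (difference 0.74, interval -0.51 to 1.99), and EIF4G2 at 4.04 against 3.40 ± 0.72 (0.64, interval -0.89 to 2.18). On the lower side EEF1G stood at 3.20 against 3.53 ± 0.49 (difference -0.33, interval -1.68 to 1.03), EIF4EBP3 at 0.58 against 0.86 ± 0.26 (-0.29, interval -0.79 to 0.21) and EIF2B1 at 0.27 against 0.45 ± 0.11 (-0.17, interval -0.45 to 0.11). EIF3L and EIF3F were the 2 of 16 genes (12.5%) for which the coyote lay outside the range of all wolves, against 6.70% of genes above the bound, but by little: the coyote and the highest wolf stood at 3.39 and 3.37 for EIF3F, and for EIF3L both rounded to 3.26. The intervals of EIF4G2, EIF3F and EIF3L leave room for differences of up to 2.18, 1.99 and 2.04 on the log2 scale, so 1 coyote gives no firm statement on these genes. For EEF1A1 the coyote stood at 3.18, within the range of the wolves without wolf 11136.

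**Figure D5:**
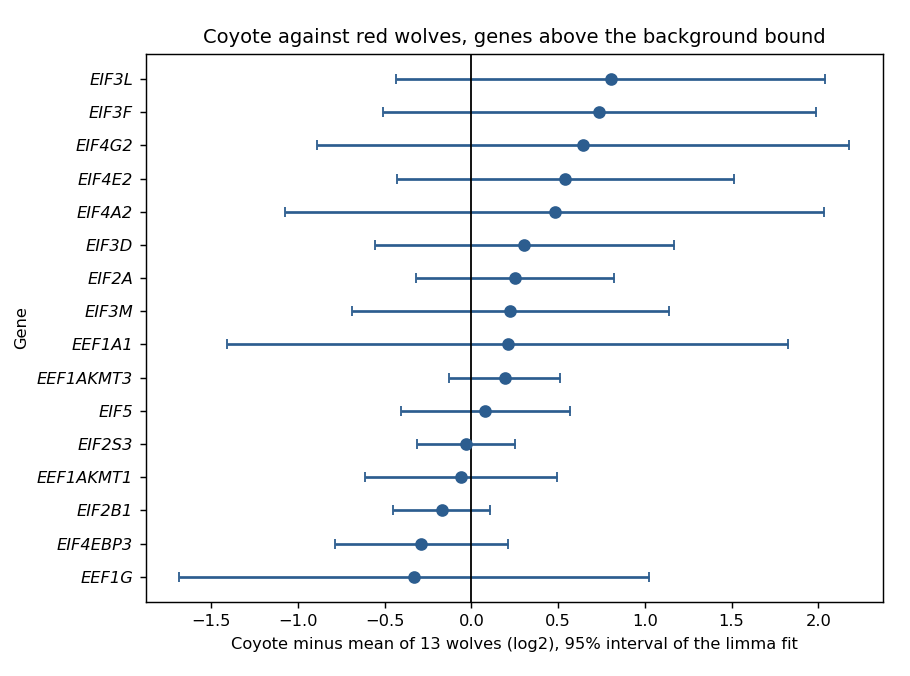
Points are the difference of the coyote from the mean of the 13 wolves on the log2 scale for the 16 genes above the background bound, and bars are the 95% intervals of the limma fit. All 16 intervals include 0, and 11 of the 16 differences are above it.

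Slide mattered for these genes as it did for the array at large. With animal in the model, 12 of the 16 genes above the bound differed between slides at an adjusted p under 0.05 in limma's F test, against 83.2% of all genes above the bound and 20.3% of all probes. Slide was a term of each fit, and each slide held arrays of 8 animals. When it was left out, 14 of the 55 genes differed among wolves, 12 of them above the bound, and EEF1AKMT1, EEF1AKMT3, EIF1B and EIF5B no longer passed.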

How the data were processed

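The deposited table holds 24354 probes on 56 arrays, in log2 intensity. The submitters' processing notes name BeadStudio 1.5.0.34 as software, and, per the labels' design text, the authors took log2 values and standardized each array on its median. In the table each array has a mean of 0, the medians lie between -0.167 and -0.0325, and the 95th percentiles, from 0.332 to 1.24, were not made equal. Whether background was subtracted is not given. Animal and slide came from the labels. No genome or sequence was used, so coordinates and probe sequences are not given.

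Fits used limma 3.58.1 in R 4.3.3 on all probes, with trend-moderated eBayes and a Benjamini-Hochberg threshold of 0.05: an F test of the animals over 52 wolf arrays with a slide term, and the coyote against the wolves on 1 slide-adjusted value per animal. Correlations used numpy 2.4.6 with 100000 permutations. The number of arrays limits the precision. The procedures were tested on simulated data. Genes were named if above the background bound or past the F test; in the other lists up to 4 per list with the largest SD that passed. For the coyote the 3 largest differences per direction were named, and the 2 genes at an unadjusted p under 0.05 were picked with their values known. The genes, lists and tests were chosen with earlier results of these data known; the 120 pairs, the red cell and array range comparisons and the joint removal of 3 wolves were added after seeing the data. The check on single outlying samples is not made for a group as large as the 13 wolves, and the arrays of an animal are 1 sample, so it was not run.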

Additional observations from a re-analysis of the deposited data

How the results depend on the processing

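Under 34 other settings (terms for slide and position, 3 other normalizations or centrings, a filter on dim probes, eBayes without a trend, other probes of a gene, and each array number, wolf or slide left out) between 13 and 18 of the 55 translation factors differed among wolves, and between 11 and 15 of the 16 above the bound; leaving out 1 array number from every animal gave 13 to 16 and 11 to 14. Without wolves 11136, 11206 and 11273 together, a setting added after seeing the data, the counts were 17 and 14. EEF1A1, EEF1G, EIF2A, EIF3D, EIF3F, EIF3L, EIF3M, EIF4A2, EIF4E, EIF4E2 and EIF4G2 passed under each setting that gave them a value. EEF1AKMT1 lost its call under 3 settings, EIF4EBP3 under 1, EIF5 under 1 (its next probe) and EIF1B under 6, and EIF2B1 gained one (adjusted p = 0.0372) in the fit without dim probes. The coyote count was 0 under each of 33 settings, and the 6 named differences kept their sign. The other translation lists gave 13 to 20 genes (14 to 18 without 1 array number). Of the 12 chosen pairs 1 passed, and 2 passed without a slide term, without wolf 11136, without wolf 11148 and without the 2 farthest wolves, EEF1A1 with EEF1G being the added pair; leaving out 1 array number gave 1. The cause of these changes was not tested. No paired analysis was possible because the array numbers follow the order of deposit and pair nothing across animals; slide served as the block instead. Signal over background limits what can be said of the 39 genes under the bound.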
